A study of Mus musculus with 16 samples.

Results

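The TRAV6 segments numbered 1 to 4 are 6 V gene segments of the mouse T cell receptor (TCR) α locus: TRAV6-1, TRAV6-2, TRAV6-3, TRAV6-4, TRAV6D-3 and TRAV6D-4. Their members in the data were the CDR3 nucleotide sequences of the libraries of all CD8 cells whose first-listed best V hit was 1 of these segments. They numbered 1024 of 78671 sequences (1.30%), carried 10115 of 815759 reads, and used 6 of the 117 V segments found. The members were chosen by their V hit in these libraries, and the set was proposed with its use already known, so its levels are given as descriptions and the tests as values from a fit over all V segments. TCRα chains of C57BL/6 mice that were Themis+/+ or Themis-/- and in both cases carried the Foxp3-GFP allele were amplified from CD8 single positive (SP) cells sorted from thymus and from CD8 T cells sorted from lymph nodes (LN), to ask how loss of Themis alters the repertoire. Each of the 4 groups had 2 libraries, numbered 1 and 2. Themis was deleted in the germline, so thymus and periphery both lacked it. The series describes libraries of individual mice, whereas the methods describe LN pooled from several mice, so the p-values measure the spread between libraries, which may be partly technical. The 8 further libraries of sorted Vα3.2+ cells hold another V segment by design. Themis expression is not measured by TCRα tables, and no marker of the sorted cells other than the receptor is in them, so genotype and cell type rest on the labels.

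An α chain is made when a V segment is joined to a J segment, and the bases at the joint encode the third complementarity-determining region (CDR3), which contacts the peptide in the MHC groove. The V segment encodes the first and second loops, which mostly contact the MHC molecule, and the first residues of the CDR3. Rearrangement at this locus can repeat, with each round joining a V segment farther from the J segments to a J segment nearer the constant region, until the thymocyte is positively selected or dies. Themis is a T lineage protein of the TCR signalling pathway that is needed for normal positive selection.

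The libraries held 57455 to 146191 reads in 4357 to 16670 distinct sequences. The members made up 430 to 2572 of these reads and 36 to 226 of the sequences, so a single member in 1 library could rest on very few sequences. Member sequences with 1 read were 13.2% to 25.3% of a library's member sequences, against 14.8% to 21.2% among other V segments. Reads are PCR copies without molecular identifiers, so limits from counts cover counting error only, and a share of reads cannot tell fewer cells with a segment from less TCRα RNA per cell.

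Some of the 6 segments contribute different bases to the CDR3, and others share them. In GENCODE on the GRCm38 build (the submitters' processing notes name mm9, whose coordinates were not used), all lie on the plus strand of chromosome 14 and are annotated as TCR V genes. TRAV6-1 lies farthest from the J cluster, at 52638515 to 52638962, which is 1516 kb from TRAJ61. TRAV6-2 (52667411 to 52667864), TRAV6D-3 (52725299 to 52726919) and TRAV6D-4 (52753367 to 52753846) follow. TRAV6-3 (53428711 to 53430377) and TRAV6-4 (53454296 to 53454784) lie in the J-proximal part, 725 and 700 kb from TRAJ61. The last 44 bases of each transcript are shown 5′ to 3′, because the 14 bases in capitals, from the conserved cysteine codon on, are the germline part of the CDR3:
TRAV6-1: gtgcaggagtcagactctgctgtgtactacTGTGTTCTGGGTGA
TRAV6-2: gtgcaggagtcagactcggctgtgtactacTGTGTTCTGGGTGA
TRAV6D-3: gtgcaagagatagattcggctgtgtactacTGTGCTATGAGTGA
TRAV6-3: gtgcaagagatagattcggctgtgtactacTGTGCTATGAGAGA
TRAV6D-4: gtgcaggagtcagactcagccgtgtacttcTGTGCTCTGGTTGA
TRAV6-4: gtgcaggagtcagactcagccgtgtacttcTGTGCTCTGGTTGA

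TRAV6-1 and TRAV6-2 share the CDR3 part and differ at 11 of their last 250 bases. TRAV6-4 and TRAV6D-4 also share it and differ at 7 of 250. TRAV6-3 and TRAV6D-3 differ at 1 base of 250, which lies in the CDR3 part, so a joint that has lost this base cannot be assigned to either. Equal best hits were recorded for 94 member sequences (9.18%): 69 between TRAV6-3 and TRAV6D-3, 17 between TRAV6-4 and TRAV6D-4, 7 between TRAV6-2 and TRAV6D-5, a segment outside the set, and 1 between TRAV6-1 and TRAV6-2. Of the 164 sequences listed under TRAV6D-3, 68 matched its own CDR3 part for longer, 46 matched that of TRAV6-3 for longer and 50 matched both equally. Use of TRAV6-3 against TRAV6D-3 is therefore uncertain, while TRAV6-1 and TRAV6-2 were told apart for nearly all sequences.

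TRAV6-1 was the most used member, with 354 of the 1024 sequences (34.6%). TRAV6-3 followed with 203, TRAV6D-3 with 164, TRAV6-2 with 145, TRAV6-4 with 80 and TRAV6D-4 with 78. The germline residues were visible in the translated joints: 83.6% of TRAV6-1 and 78.6% of TRAV6-2 sequences began with CVLG. The start CAMS was found in 47.6% and CAMR in 41.5% of sequences listed under TRAV6D-3, and CALV in 60.3% of those of TRAV6D-4. The whole 14-base germline part was kept in 52.3% of TRAV6-1 sequences and 47.6% of TRAV6-2 sequences, against 24.4% to 35% in the other members.

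The largest member sequence of each library follows, because these clones carried the most member reads. Capitals mark the bases that match the germline V end without a break from the cysteine codon:
Themis+/+ thymus 1, TRAV6D-3 with TRAJ17: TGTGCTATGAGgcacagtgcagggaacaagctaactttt
Themis+/+ thymus 2, TRAV6-3 with TRAJ39: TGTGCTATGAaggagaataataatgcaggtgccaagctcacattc
Themis-/- thymus 1, TRAV6D-3 with TRAJ26: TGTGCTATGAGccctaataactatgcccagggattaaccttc
Themis-/- thymus 2, TRAV6-3 with TRAJ37: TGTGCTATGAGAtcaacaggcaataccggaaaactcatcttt
Themis+/+ LN 1, TRAV6-4 with TRAJ22: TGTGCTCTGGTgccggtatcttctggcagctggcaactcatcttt
Themis+/+ LN 2, TRAV6D-3 with TRAJ9: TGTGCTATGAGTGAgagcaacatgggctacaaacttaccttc
Themis-/- LN 1, TRAV6-1 with TRAJ22: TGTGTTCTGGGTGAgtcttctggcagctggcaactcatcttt
Themis-/- LN 2, TRAV6-1 with TRAJ12: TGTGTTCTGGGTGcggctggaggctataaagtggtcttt

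The top clones of both Themis-/- LN libraries used TRAV6-1, and those of the other 6 libraries used TRAV6-3, TRAV6D-3 or TRAV6-4. The most abundant of the 8 was the TRAV6D-3 sequence of Themis-/- thymus 1, with 379 reads, 14.7% of that library's member reads and 0.259% of all its reads. The top clone of Themis-/- thymus 2 held only 65 reads and 3.64% of the member reads. The remaining 6 held 52 to 150 reads and 8.92% to 12.1% of the member reads. None was the most abundant sequence of its library.

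TRAV6-1 differed between the genotypes. It made up 0.324% and 0.191% of reads in Themis+/+ thymus and 0.633% and 0.429% in Themis-/- thymus. In LN it made up 0.168% and 0.158% in Themis+/+ and 0.294% and 0.936% in Themis-/-. In each tissue both Themis-/- libraries lay above both Themis+/+ libraries, as they did for 8 of 114 segments (7.02%). Across tissues the genotypes overlapped, since Themis+/+ thymus 1 lay above Themis-/- LN 1. Over both tissues its reads rose in Themis-/- by 1.52 on the log2 scale (SE 0.46, edgeR quasi-likelihood test, Benjamini-Hochberg adjusted p = 0.0300 over 114 segments). In this comparison 7 of 114 segments (6.14%) passed the threshold of 0.05, 4 of them higher (3.51%), and TRAV6-1 was the only 1 of the 6 members among them.

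The rise of TRAV6-1 was also found in numbers of sequences, where each distinct CDR3 nucleotide sequence counts once. Near copies, 1 mismatch from a sequence with at least 5 times the reads, were included. They were 2.11% to 10.2% of a library's member sequences, with the highest share in Themis-/- LN 2. TRAV6-1 made up 0.378% and 0.254% of distinct sequences in Themis+/+ thymus, 0.571% and 0.651% in Themis-/- thymus, 0.246% and 0.348% in Themis+/+ LN, and 0.344% and 0.960% in Themis-/- LN. By this measure Themis-/- LN 1 lay just below Themis+/+ LN 2, so the LN groups overlapped. Tested on sequences, the log2 fold change was 1.02 (SE 0.30, edgeR adjusted p = 0.0121). The number of all segments that passed in this fit is not given here. The 5 largest TRAV6-1 sequences held 37.2% and 26.0% of TRAV6-1 reads in the Themis-/- thymus libraries and 41.7% and 73.4% in the Themis+/+ ones. In LN they held 77.0% and 45.7% in Themis-/- and 60.2% and 68.1% in Themis+/+.

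Within each tissue alone TRAV6-1 did not pass the threshold. Its log2 fold change in Themis-/- was 1.15 in thymus (SE 0.64, edgeR adjusted p = 0.761) and 1.88 in LN (SE 0.66, edgeR adjusted p = 0.0953). The call over both tissues needed nearly all libraries. It was lost when any 1 library other than Themis-/- LN 1 was left out. The log2 fold change was then 1.75 and 1.35 without Themis+/+ thymus 1 and 2, 1.38 and 1.67 without Themis-/- thymus 1 and 2, 1.56 and 1.53 without Themis+/+ LN 1 and 2, and 1.04 without Themis-/- LN 2, with edgeR adjusted p of 0.0554 to 0.305. Without Themis-/- LN 1 it was 1.81 (adjusted p = 0.0191), so the direction held in all 8 of these fits. With the sequences of equal best V hits left out it was 1.45 (edgeR adjusted p = 0.05996).

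**Figure D1:**
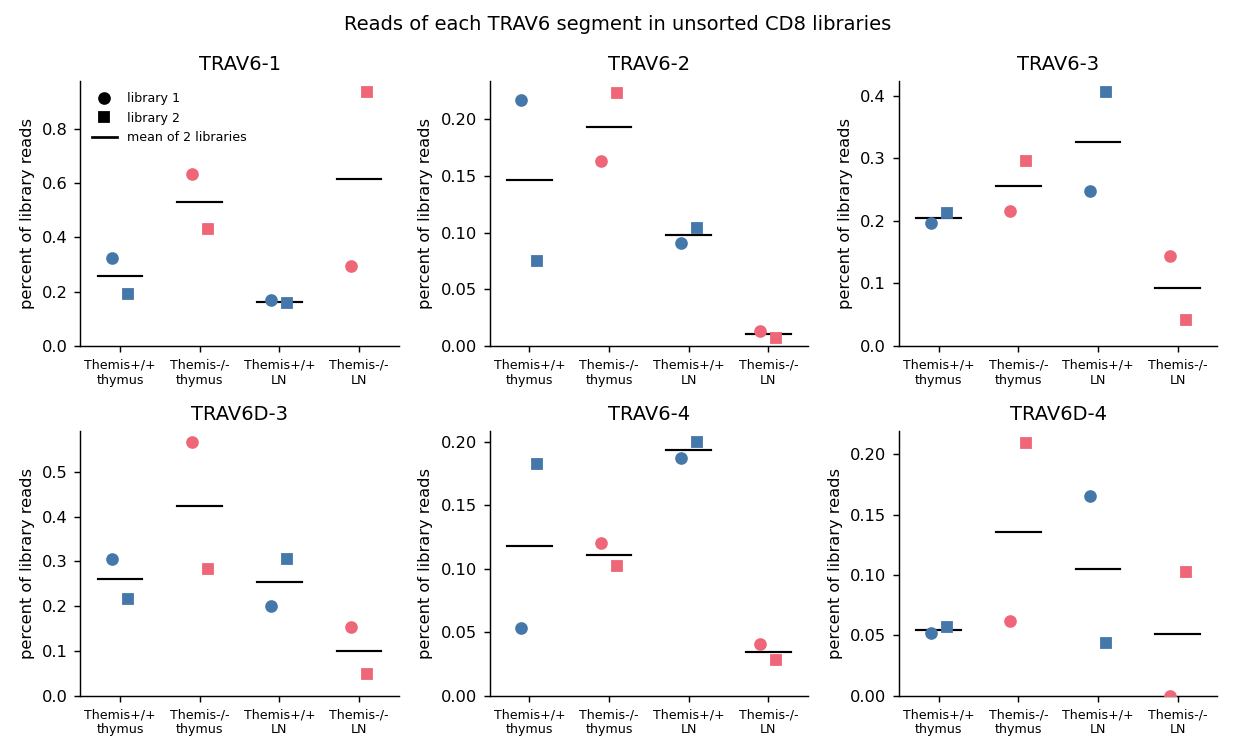
Percent of a library's reads (y axis, from 0, scaled per panel) assigned to each of the 6 segments in the 4 groups (x axis). Points are single libraries, circles library 1 and squares library 2, blue Themis+/+ and red Themis-/-, and bars are means of 2 libraries. TRAV6-1 is higher in both Themis-/- libraries than in both Themis+/+ libraries of the same tissue, and TRAV6-2 is near the bottom of the axis in both Themis-/- LN libraries.

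TRAV6-2, the segment whose germline CDR3 part is identical to that of TRAV6-1, had few reads in Themis-/- LN, 9 and 6, or 0.0135% and 0.00742% of reads. The Themis-/- thymus libraries had 0.163% and 0.223%, the Themis+/+ LN libraries 0.0908% and 0.104%, and the Themis+/+ thymus libraries 0.217% and 0.0752%. Both Themis-/- LN libraries lay below all 6 others, as they did for 17 of 114 segments (14.9%). From thymus to LN in Themis-/-, TRAV6-2 reads fell by 4.15 on the log2 scale (SE 1.16, edgeR adjusted p = 0.0394), in a comparison in which 3 of 114 segments (2.63%) passed, 2 of them lower (1.75%) and 1 higher (0.877%).

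The fall was also found in numbers of sequences. TRAV6-2 was found in 29 and 40 sequences in the Themis-/- thymus libraries and in 2 sequences in each Themis-/- LN library, against 37 and 16 in Themis+/+ thymus and 14 and 5 in Themis+/+ LN. Tested on sequences, the log2 fold change from thymus to LN in Themis-/- was -2.63 (SE 0.78, edgeR adjusted p = 0.0339). Over both genotypes it was -1.77 (SE 0.50, edgeR adjusted p = 0.0188), whereas reads gave -2.29 (SE 0.75, edgeR adjusted p = 0.158). The numbers of all segments that passed on sequences are not given here. In Themis+/+ the read log2 fold change from thymus to LN was -0.43 (SE 0.995, edgeR adjusted p = 0.934). The difference between the genotypes in this step was -3.72 on the log2 scale (SE 1.49) and did not pass either (edgeR adjusted p = 0.765, with 1 of 114 segments called, which was lower, 0.877%), so the fall is not shown to be particular to Themis-/-.

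The TRAV6-2 call was sensitive to the libraries used. It held without Themis+/+ LN 1 (log2 fold change -4.04) or 2 (-4.15). It was lost without Themis+/+ thymus 1 (-4.03) or 2 (-4.15), Themis-/- thymus 1 (-4.24) or 2 (-4.0008), or Themis-/- LN 1 (-4.65) or 2 (-3.63), with edgeR adjusted p of 0.0552 to 0.242. With the sequences of equal best V hits left out it was -4.23 (edgeR adjusted p = 0.0596). It was -4.04 with only the 4 Themis-/- libraries (edgeR adjusted p = 0.173) and -4.22 with the replicate number as a block (edgeR adjusted p = 0.0537). The direction was the same in all of these fits.

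The other 4 members passed the threshold in none of the 7 comparisons fitted on all 8 libraries. TRAV6-3 made up 0.197% and 0.212% of reads in Themis+/+ thymus, 0.215% and 0.296% in Themis-/- thymus, 0.248% and 0.406% in Themis+/+ LN and 0.144% and 0.0421% in Themis-/- LN. TRAV6-4 made up 0.0537% and 0.183%, 0.120% and 0.102%, 0.187% and 0.200%, and 0.0405% and 0.0284% in the same order. For both segments, as for TRAV6-2 and TRAV6D-3, each Themis-/- LN library lay below each library of the other 3 groups, a separation found for the 17 segments already counted. Themis-/- LN lay below Themis+/+ LN for 29 of 114 segments (25.4%). TRAV6D-3, which cannot be separated well from TRAV6-3, was found in LN with 0.201% and 0.306% in Themis+/+ and 0.153% and 0.0482% in Themis-/-. TRAV6D-4 was found in 0.166% and 0.0435% of reads in Themis+/+ LN and 0.103% in Themis-/- LN 2. It had 0 of 66697 reads in Themis-/- LN 1, which allows a share of up to 0.00450%.

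In LN the comparison of Themis-/- with Themis+/+ gave log2 fold changes of -3.24 for TRAV6-2 (SE 1.13), -2.51 for TRAV6-4 (SE 1.05), -1.85 for TRAV6-3 (SE 0.80), -1.37 for TRAV6D-3 (SE 0.75) and -1.03 for TRAV6D-4 (SE 1.25), beside 1.88 for TRAV6-1. The median over the 6 members was -1.61 and over all 114 segments -0.09. None of the 6 passed in edgeR (adjusted p = 0.0953 to 0.674), where 2 of 114 segments (1.75%) did. An unadjusted edgeR p under 0.05 was found for 4 of the 6 members and for 20 of the 114 segments (17.5%). DESeq2 called 2 members, TRAV6-1 and TRAV6-2, and its count over all segments is not given here. In numbers of sequences, with D copies merged, the log2 fold changes of TRAV6-3 and TRAV6-4 were -0.34 (SE 0.45) and -0.15 (SE 0.67).

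In thymus the same comparison gave values above 0 for all 6 members, from 0.01 for TRAV6-4 to 1.36 for TRAV6D-4 (SE 1.25), and TRAV6-4 lay below 0 with 2 other scalings of the libraries. The median was 0.65 against 0.08 over all segments. No segment of 114 (0.0%) and no member passed in edgeR, 8 segments and 0 members had an unadjusted p under 0.05, and DESeq2 called 0 members. In Themis+/+ the step from thymus to LN gave members' log2 fold changes of -0.51 to 1.05, again with no call among 114 segments (0.0%), 0 segments at an unadjusted p under 0.05 and 0 members called by DESeq2. In Themis-/- the same step gave -1.33 to -2.07 for TRAV6-3, TRAV6-4, TRAV6D-3 and TRAV6D-4, and 0.22 for TRAV6-1 (SE 0.63).

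**Figure D2:**
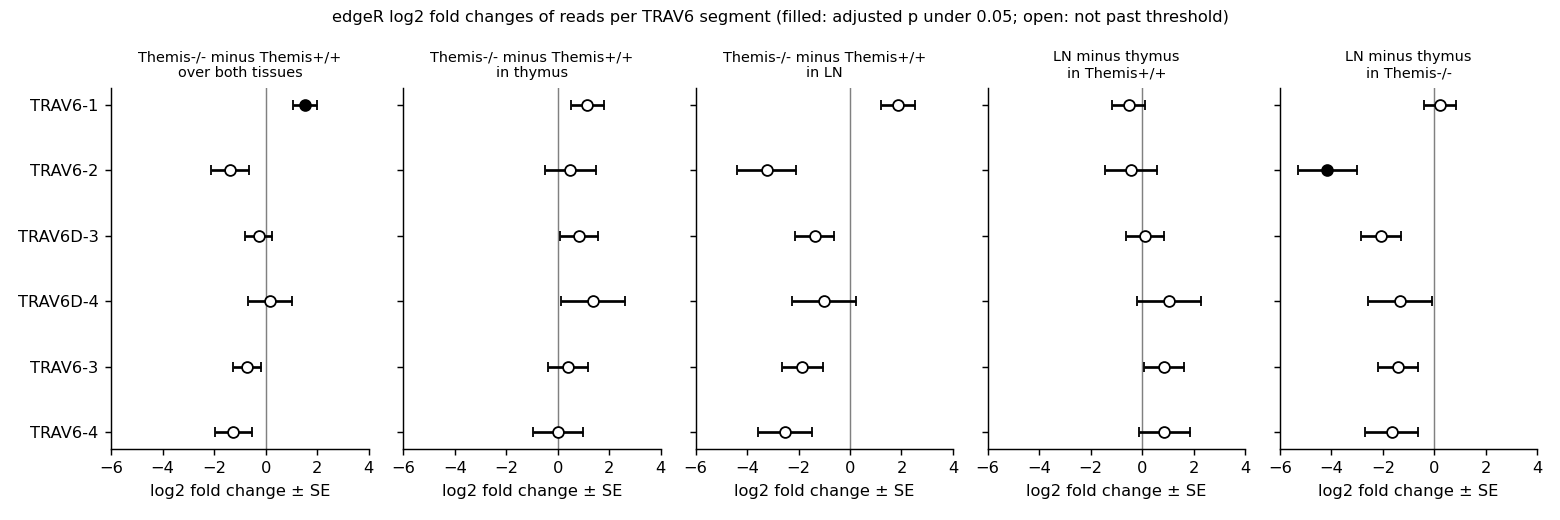
Log2 fold changes from the edgeR fit over 8 libraries (x axis, points) with standard errors (bars) for the 6 segments (rows) in 5 comparisons (panels). Filled points passed an adjusted p of 0.05 over 114 segments: TRAV6-1 between the genotypes over both tissues (1.52) and TRAV6-2 from thymus to LN in Themis-/- (-4.15). In Themis-/- LN against Themis+/+ LN, TRAV6-1 lies at 1.88 and the other 5 segments below 0.

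The make-up of the set differed between groups. TRAV6-1 accounted for 28.2% and 20.5% of member reads in Themis+/+ thymus, 36% and 27.8% in Themis-/- thymus and 15.9% and 13% in Themis+/+ LN, against 45.6% and 80.4% in Themis-/- LN. The set as a whole took 1.15% and 0.933% of reads in Themis+/+ thymus, 1.76% and 1.54% in Themis-/- thymus, 1.06% and 1.22% in Themis+/+ LN and 0.645% and 1.17% in Themis-/- LN. Both Themis-/- thymus libraries lay above every other library, an order that was not counted among other V segments. Stratified by tissue, the difference between the genotypes was 0.188 percentage points of reads (exact permutation test, two-sided, p = 0.444) and 0.409 points of sequences (p = 0.167, same exact test). Such an exact test over 2 libraries in each of 4 groups has 36 arrangements and cannot go below p = 0.0556. The same holds for all 16 comparisons of 8 measures of the set between genotypes or tissues, whose adjusted values were 0.711 or above.

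The rearrangement that marks invariant NKT cells, TRAV11 or TRAV11D with TRAJ18, was also higher in both Themis-/- than in both Themis+/+ thymus libraries: it took 0.0553% and 0.116% of reads in Themis+/+ and 0.354% and 0.419% in Themis-/-, and at most 0.0128% in LN, with 0 reads in Themis-/- LN 1. In the same thymus libraries the members took 1.15% and 0.933% of reads in Themis+/+ and 1.76% and 1.54% in Themis-/-. The MAIT rearrangement, TRAV1 with TRAJ33, took 0% to 0.0424% of reads. Their part in the result was not tested. Over the 8 libraries the V segment whose log2 CPM (reads scaled to an equal library total) were most like the members' sum was TRAV11D (Pearson r = 0.819), followed by TRAV8-1 (0.791) and TRAV7-4 (0.733) among 108 segments. These 8 points share libraries, depth and groups, so the values are a description.

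The neighbouring TRAV6 segments numbered 5 to 7 were far more used, with 9066 sequences from 9 segments. Between the genotypes over both tissues 1 of these 9, TRAV6N-7, passed the threshold, and their median log2 fold change was 0.39. In LN their median difference between the genotypes was 0.02, beside -1.61 for the members, and in the step from thymus to LN in Themis-/- it was -0.11, beside -1.54 for the members; 0 of the 9 passed in either by edgeR. The difference between these medians was not tested.

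The members joined J segments farther from the V cluster than other V segments did. TRAJ segments are numbered from the constant region, so a lower number lies nearer to it. The mean TRAJ number of member sequences was 24.4 and 30.1 in Themis+/+ thymus, 24.7 and 22.97 in Themis-/- thymus, 25.8 and 24.5 in Themis+/+ LN and 25.5 and 23.7 in Themis-/- LN. It was lower than that of all other V segments in the same library in all 8 libraries, with differences of -6.51 to -1.03. The mean difference was -3.58 ± 1.76 (SD, n = 8 libraries), with 25.2 for the members and 28.8 for the others (exact permutation test within libraries, two-sided, p = 0.00781, the smallest it can give, adjusted p = 0.0117 over 3 measures). The members differed among themselves: averaged over libraries, the mean TRAJ number was 23.8 for TRAV6-1, 24.6 for TRAV6-4, 25.1 for TRAV6D-3, 25.2 for TRAV6-3, 28.04 for TRAV6D-4 (7 libraries) and 28.4 for TRAV6-2. The SD over libraries was 2.72 to 6.33, and TRAV6D-4 and TRAV6-2 lay close to the 28.8 of other V segments. Pooled over libraries the values were 24.03 for TRAV6-3 to 26.99 for TRAV6D-4, with 24.2 for TRAV6-1 and 26.9 for TRAV6-2.

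**Figure D3:**
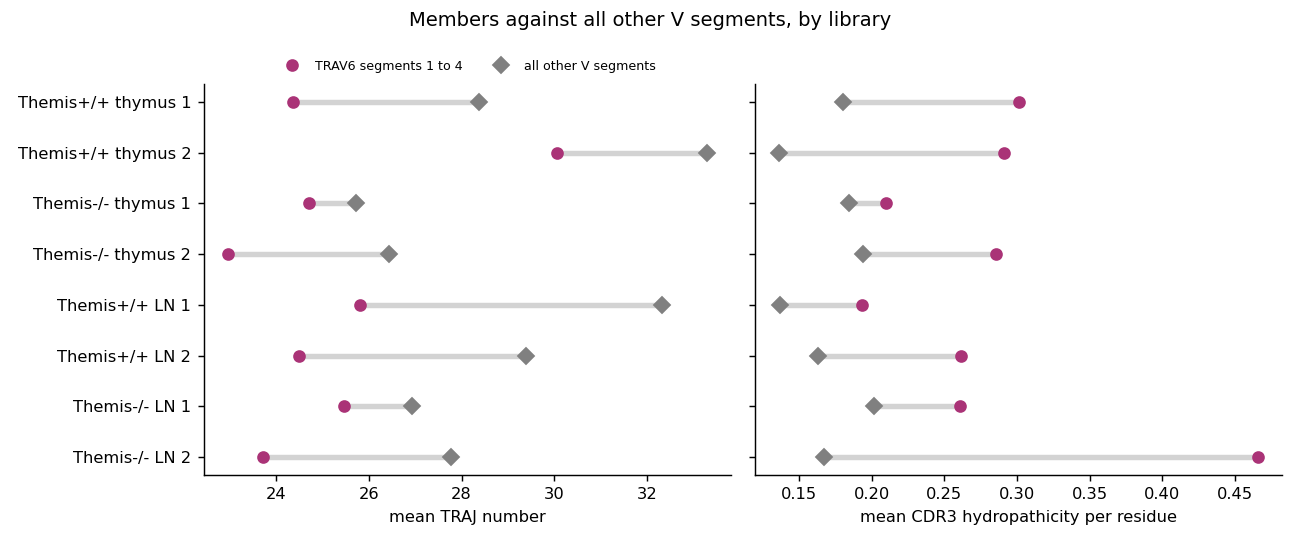
Mean TRAJ number (left, x axis) and mean CDR3 hydropathicity per residue (right, x axis) of sequences with TRAV6 segments 1 to 4 (circles) and with all other V segments (diamonds) in each of the 8 libraries (rows). In all 8 libraries the members lie to the left for TRAJ number and to the right for hydropathicity.

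The shift lay at the V-proximal end of the J cluster. TRAJ46 to TRAJ61 were used by 5.27% ± 4.13 of member sequences (SD, n = 8 libraries) and by 16.5% ± 4.28 of other sequences, with the members lower in 8 of 8 libraries. TRAJ13 to TRAJ23 were used by 35.6% ± 6.67 of member sequences and 26.4% ± 3.07 of others, with the members higher in 8 of 8. At the constant-proximal end, TRAJ2 to TRAJ12, the shares were 15.0% ± 7.49 and 15.6% ± 5.25. These windows were set after the values were seen and carry no test. TRAV6-1 had 5 of 354 sequences (1.41%) in TRAJ46 to TRAJ61, whereas TRAV6D-4 had 12 of 78 (15.4%).

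**Figure D4:**
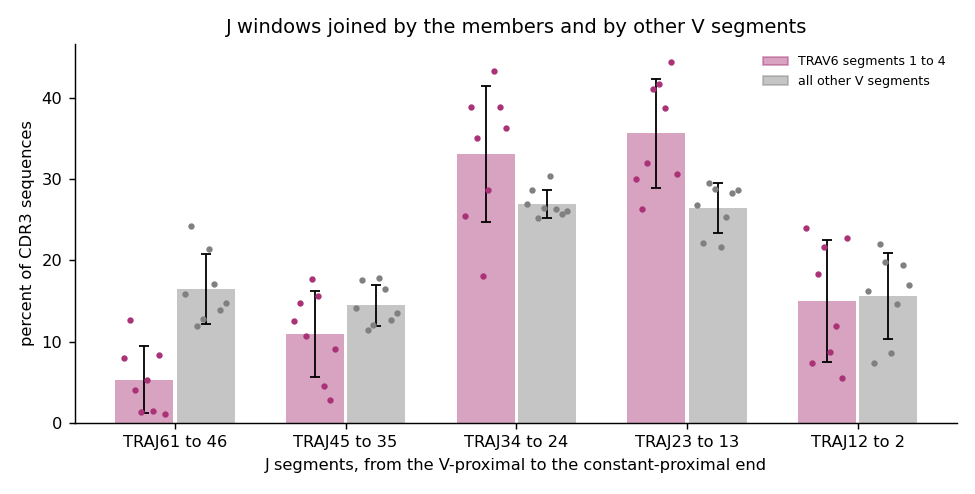
Percent of CDR3 sequences (y axis, from 0) in 5 windows of J segments ordered from the V-proximal to the constant-proximal end (x axis), for TRAV6 segments 1 to 4 and for all other V segments. Bars are means of 8 libraries, error bars SD, points single libraries. At TRAJ61 to 46 the members average 5.27% and the others 16.5%.

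No single J segment passed the test against other V segments. The members' most used partners by mean share of sequences were TRAJ22 (6.76% against 5.47% in other V segments), TRAJ23 (6.52% against 5.11%), TRAJ12 (6.30% against 4.92%), TRAJ31 (5.91% against 5.02%) and TRAJ15 (5.83% against 3.71%). Their shares varied widely between libraries, TRAJ12 from 0% to 17.0% and TRAJ23 from 2.5% to 14.6%. Of 29 J segments 0 passed the exact permutation test after adjustment (0.0%) and 2 had an unadjusted p under 0.05, TRAJ49 and TRAJ4, named after their values were seen, both with lower means among members (p = 0.0156 each, exact permutation test, adjusted p = 0.227). TRAJ49 took 1.18% of member sequences and 4.24% of others. The smallest p that the exact permutation test can give with 8 libraries is 0.00781. A single J segment at that value would not have passed after adjustment over 29. The absence of a call was therefore nearly fixed in advance and says little about any 1 J segment. The use of 10 pairs of the set with a J segment was also compared between the genotypes and the tissues. In both comparisons 0 of 420 pairs (0.0%) passed in edgeR and in DESeq2, while 45 and 34 pairs, and 0 and 1 of the 10, had an unadjusted p under 0.05.

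Taken as a set, the CDR3s of the members were more hydrophobic than those of other V segments. In the mean this difference lay in the first 4 residues. Mean hydropathicity (Kyte-Doolittle value per residue, each amino acid CDR3 once) was 0.284 for the members and 0.171 for other V segments, a difference of 0.113 ± 0.085 (SD, n = 8 libraries) that was above 0 in 8 of 8 libraries (exact permutation test, p = 0.00781, adjusted p = 0.0117). The TRAV6 segments numbered 5 to 7 were also above the V segments outside TRAV6 in 8 of 8 libraries, by 0.047 ± 0.019. The members exceeded these TRAV6 segments by 0.071 ± 0.079 in the mean and in 7 of 8 libraries, Themis-/- thymus 1 being the exception, a difference given without a test. The members were split by their germline ends: over sequences TRAV6-1 averaged 0.45, TRAV6-2 0.42, TRAV6D-4 0.43 and TRAV6-4 0.56, and TRAV6D-3 0.01 and TRAV6-3 -0.10. TRAV6D-3 and TRAV6-3 thus lay below the 0.171 of other V segments. The first 4 residues, mostly encoded by the V segment that chose the members, differed by 0.51 ± 0.16 from those of other V segments. The outcome of the test on whole CDR3s was therefore largely fixed by that choice, and its p-value is no support for a property beyond it. The remaining residues differed by -0.053 ± 0.092 and were more hydrophobic among members in 1 of 8 libraries. Weighted by reads, the hydropathicity difference was 0.051 and did not pass (exact permutation test, adjusted p = 0.695). CDR3 length averaged 40.7 nt in the members and 40.6 nt in the others (difference 0.11 ± 0.65 nt, exact permutation test, p = 0.625), and 42 nt was the most frequent length in both, at 36.7% and 30.1% of sequences.

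The number and size of member clones gave no difference that a test over 8 libraries could call. At an equal 430 member reads, 132 and 77.6 distinct sequences were expected in Themis+/+ thymus, 123 and 155 in Themis-/- thymus, 84.3 and 59.8 in Themis+/+ LN and 36 and 72.9 in Themis-/- LN. The LN values lay below the thymic values without overlap in Themis-/- and overlapped in Themis+/+. Richness of other V segments at equal reads was not computed. Their reads per distinct sequence were higher in Themis-/- LN (15.3 and 15.0) than in Themis-/- thymus (11.9 and 9.56). In Themis+/+ they overlapped, with 9.94 and 9.98 in LN and 7.49 and 10.4 in thymus. The members' own reads per distinct sequence overlapped in Themis-/-, with 11.9 and 10.7 in LN and 13.1 and 7.90 in thymus. In Themis+/+ they were higher in LN (11.6 and 10.4) than in thymus (7.175 and 9.67). Reads per sequence and richness at equal reads are different measures. The order in richness is therefore not shown to be particular to the members, and this was not tested. In the members' richness the difference between LN and thymus was -58.5 sequences (exact permutation test, p = 0.111). The 10 largest member sequences held 33.5% and 49.7% of member reads in Themis+/+ thymus, 37.6% and 21.6% in Themis-/- thymus, 49.4% and 63.1% in Themis+/+ LN and 69.1% and 55.7% in Themis-/- LN, a difference of 23.7 percentage points between LN and thymus (exact permutation test, p = 0.111).

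**Figure D5:**
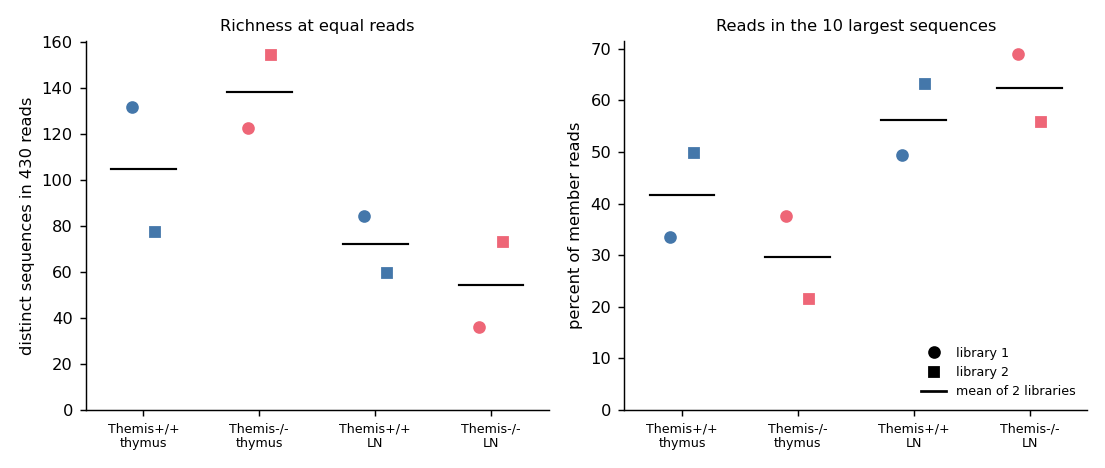
Distinct member sequences expected in 430 member reads (left, y axis) and percent of member reads in the 10 largest member sequences (right, y axis) in the 4 groups (x axis). Circles are library 1, squares library 2, blue Themis+/+, red Themis-/-, and bars means of 2 libraries. Both Themis-/- LN libraries lie below both Themis-/- thymus libraries on the left and above them on the right. Other V segments are not shown.

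Some member CDR3s were shared between libraries. Of 839 amino acid CDR3s, 36 (4.29%) were found in more than 1 library, 4 of them in 3 libraries and 0 in 4 or more. Of the 36, 17 were found in both genotypes, 7 only in Themis+/+ and 12 only in Themis-/-. Most of the 12 formed pairs that differ at 1 residue and occur in the same 2 libraries. These were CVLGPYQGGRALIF and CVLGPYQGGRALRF, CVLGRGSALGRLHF and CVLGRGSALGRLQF, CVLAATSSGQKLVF and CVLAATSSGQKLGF, and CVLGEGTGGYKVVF and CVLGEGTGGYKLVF. The CDR3s in both genotypes also hold such a pair, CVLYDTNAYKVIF and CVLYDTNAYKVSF. The 7 found only in Themis+/+ hold none. Each CDR3 of a pair was counted, which raises the 12 and not the 7, and whether a pair stems from 1 clone was not tested. Counted within each V family, 14.6% of 6170 CDR3s of TRAV6 segments 5 to 7 and 13.9% of 52915 CDR3s of all other V segments were found in more than 1 library, and 65.6% and 66.6% of these were in both genotypes, against 47.2% of the 36. The V families differ in how many sequences they hold, and the differences were not tested. The distinct nucleotide sequences that encode shared CDR3s used TRAJ22 in 18.3% and those of unshared CDR3s in 5.35%, and 52.1% against 29.9% had no base between the V and J alignments. These shares are descriptions of pooled sequences.

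The CDR3s in 3 libraries ended in TRAJ22 in 3 cases of 4. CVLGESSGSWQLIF (TRAV6-1) had 1 read in Themis+/+ thymus 1, 8 in Themis-/- thymus 1 and 52 in Themis-/- LN 1, where it was the largest member clone. Its nucleotide sequence was the same in both thymus libraries and differed at 1 base in LN:
Both thymus libraries: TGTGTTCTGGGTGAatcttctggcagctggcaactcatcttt
Themis-/- LN 1: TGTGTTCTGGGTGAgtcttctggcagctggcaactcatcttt

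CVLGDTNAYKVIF (TRAV6-1 with TRAJ30) had 4 reads in Themis+/+ thymus 2, 6 in Themis-/- thymus 1 and 83 in Themis-/- LN 2. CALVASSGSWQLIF, listed under TRAV6-4 and TRAV6D-4, had 2 reads in Themis-/- thymus 1, 93 in Themis+/+ LN 1 and 1 in Themis+/+ LN 2. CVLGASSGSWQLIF, listed under TRAV6-1 and TRAV6-2, had 1 to 3 reads in 3 thymus libraries. In the first 3 of these a single LN library held most of the reads. Of the CDR3s in 2 libraries, the largest mean shares belonged to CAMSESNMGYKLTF (TRAV6D-3 with TRAJ9), with 81 reads in Themis+/+ LN 2 and 4 in Themis+/+ thymus 1, and to the TRAV6-3 with TRAJ39 clone that was largest in Themis+/+ thymus 2, which had 98 reads there and 1 read in Themis+/+ LN 1. Shared sequences with 1 read can also arise from cross-talk between libraries, which was not tested.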

How the data were processed

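TCRα cDNA of sorted cells was made by template switching, amplified with a constant-region primer and sequenced on a MiSeq, and the authors used MiXCR (version not stated) to extract the TCR sequences. The submitters' processing notes name CASAVA 1.4 and the mm9 build. The authors deposited 1 clone table per library with raw read counts per CDR3 nucleotide sequence, not normalized, and no filter on clones is stated.

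From these counts, reads were summed by the first-listed V hit in the 8 libraries of all CD8 cells. Use was tested with the edgeR 4.0.16 quasi-likelihood test (R 4.3.3, TMM, cell means of 4 groups, at least 10 reads in at least 2 libraries, Benjamini-Hochberg over 114 segments), and a standard error is the log2 fold change divided by the root of F. Library measures were compared by exact two-sided permutation within tissue or genotype (36 arrangements) and members with other V segments by exact exchange within libraries (256 arrangements), in Python 3.11.15. Ties in the V hit, DESeq2 1.42.0, counts of sequences, scalings, filters, a replicate block and omission of each library were tried as alternatives. Near copies (1 mismatch to a sequence with at least 5 times the reads), merged D copies and crossed replicate numbers were added after the data were seen.

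The members and lists were chosen with earlier results of these data known. All members were named, with the 5 J segments of highest mean share, any J segment or pair past the threshold, the 6 CDR3s in most libraries (ties by mean share), the largest sequence of each library and the 3 V segments most like the set. Segment positions and ends were taken from GENCODE M21 (GRCm38). Tested on simulated data for the comparison of genotypes over both tissues, with 114 segments, the fit called 1 of 10 segments changed by 1 on the log2 scale, 7 of 10 changed by 2 and 0 of the unchanged ones.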

Additional observations from a re-analysis of the deposited data

Results flagged for a closer look

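TRAV6-3 was picked out because its difference between the genotypes ran in opposite directions in the 2 tissues without overlap of the libraries, a pattern found for 4 of 114 segments (3.51%), 1 of them a member. The gap in thymus was narrow. In thymus both Themis-/- libraries (0.215% and 0.296% of reads) lay above both Themis+/+ libraries (0.197% and 0.212%), and in LN both (0.144% and 0.0421%) lay below both Themis+/+ libraries (0.248% and 0.406%). The interaction on the log2 scale was -2.25 (SE 1.10) and did not pass after adjustment over 114 segments (edgeR adjusted p = 0.765). TRAV6-3 and TRAV6D-3 could not be told apart in many sequences.

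The libraries of sorted Vα3.2+ cells, which no comparison used, held 4 member sequences with 8 reads in 4 of 8 libraries. In the second Themis-/- thymus library of this sort 4 of 22940 reads (0.0174%) were member reads, above the 0.0131% that a count of 0 allows. None of the 4 sequences was a member sequence of the 8 libraries of all CD8 cells.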

How the results depend on the processing

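Members called moved as follows, and the numbers of all segments called in these alternative fits are not given here. DESeq2 called 2 members in LN between the genotypes and 1 from thymus to LN over both genotypes, where edgeR called 0; counts of sequences, also without near copies or with D copies merged, likewise called 1 there. From thymus to LN in Themis-/- the count went from 1 to 0 without tied sequences, with only the 4 libraries concerned (TRAV6-2 -4.04, adjusted p = 0.173) and with the replicate block. Between the genotypes over both tissues it went from 1 to 0 without tied sequences. With 1 library left out, members called ranged from 0 to 1 in each of these: the genotypes in LN, thymus to LN in Themis-/-, the genotypes over both tissues, and the interaction. The call in LN and in the interaction came without Themis-/- LN 2, which left TRAV6D-4 with 0 reads in the only Themis-/- LN library, and its fold is then no bound. The cause of the other changes was not tested.

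Read weighting reduced the hydropathicity difference from other V segments to 0.0506. The share of member sequences found in another library turned from positive to negative when counted by nucleotide sequence, to -0.446 points between the genotypes and -0.678 between LN and thymus. Leaving out 1 library, the following differences changed sign: mean J number from thymus to LN (-2.06 to 0.777), and between the genotypes richness (-5.46 to 21.7 sequences) and the 10 largest sequences (-6.99 to 1.11 points). Hydropathicity ranged from -0.00756 to 0.0950 between the genotypes and from -0.0278 to 0.0748 between LN and thymus, and the shared fraction from -0.620 to 2.82 and from -0.848 to 2.18 points. Against other V segments TRAJ12 ranged from -0.172 to 2.57 points and TRAJ31 from -0.383 to 1.68. No difference that changed sign had passed a test. The J number difference from other V segments stayed between -3.95 and -3.16.

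With the replicate number as a block, TRAV6-1 between the genotypes was 1.51 (edgeR adjusted p = 0.0442) and TRAV6-2 from thymus to LN in Themis-/- was -4.22 (adjusted p = 0.0537). Deviations of same-numbered libraries correlated at -0.251 to 0.0627, which gives no sign of pairing; the study describes 2 experiments per genotype, and whether a number marks an experiment is not stated. With crossed numbers the block called 1 member between the genotypes over both tissues and 0 within each tissue, and its counts over all segments are not given here. Depth limits the members most in Themis-/- LN 1, with 430 member reads in 36 sequences.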
